A study of Mus musculus and Rattus norvegicus with 32 samples.

Results

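Integrin, laminin and nidogen genes were followed through the 4 RNA sequencing comparisons of the series. They comprise the alpha and beta integrin subunits (18 and 8 genes), the laminin chains (11 genes) and the nidogens (2 genes), all taken by gene symbol from the deposited gene tables. This gave 39 genes of 55487 in each of the 3 mouse heart tables and 37 genes of 32883 in the rat table, where no row carries the symbol Itgad or Lama3. Each group held 4 libraries. Hearts of 1-month-old C57BL/6 mice labelled Mettl5-KO, a whole-body knockout, were compared with control littermates (Ctrl). Hearts labelled Mettl5-cKO came from mice 3 months old, in which Myh6-Cre, a transgene active in cardiomyocytes, removes floxed Mettl5 exons, and were compared with those of control littermates. The same Mettl5-cKO and Ctrl genotypes, again 3 months old, were compared 4 weeks after transverse aortic constriction (TAC), which loads the left ventricle with pressure. Neonatal rat ventricular cardiomyocytes (NRVMs) were isolated from Sprague Dawley rats on postnatal day 2, pre-plated to remove fibroblasts, given adenovirus that carries GFP (AdGFP) or human METTL5 (AdMettl5), and in both groups treated with 20 μM phenylephrine (PE) for 24 h. The Mettl5-cKO samples carry that name in their titles, whereas their genotype field reads Mettl5-KO.

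Integrins are receptors of the cell surface, each made of an alpha and a beta subunit, that tie the cytoskeleton to the extracellular matrix. Laminins are trimers of an alpha, a beta and a gamma chain that form the sheet of the basement membrane, and nidogens link this sheet to the collagen IV network. In the heart, cardiomyocytes, endothelial cells and mural cells each lie on a basement membrane, and the integrins that hold cardiomyocytes to it gather at costameres, where force passes from the sarcomere to the matrix.

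Values are given as CPM, the count divided by the TMM-scaled size of its library, and a gene was called higher or lower where edgeR's quasi-likelihood test gave a Benjamini-Hochberg adjusted p under 0.05 over all genes tested. Library totals ran from 14324700 to 21804907 counts. Libraries are numbered 1 to 4 within a group. The sources used here tie most of them to no single animal or culture, so the p-values measure the spread between these libraries. The Mettl5 count itself averaged 7.36 CPM in Ctrl and 6.51 in Mettl5-cKO hearts at 3 months, and did not separate the genotypes in any heart table. In Mettl5-cKO hearts, counts over the whole gene take in exons that are not floxed, so they are no check of the deletion. This reason does not cover the whole-body Mettl5-KO hearts, where the cause was not tested. Cardiomyocyte markers (10 genes) summed to 24000 to 47700 CPM in the hearts and to 10500 to 25500 CPM in the NRVMs. Fibroblast markers summed to 8650 to 11400 CPM in the NRVMs, so RNA of fibroblast type was present after pre-plating. In bulk RNA, fewer cells of a type and less RNA per cell cannot be told apart.

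Among the members, the receptor subunit shared by most heart integrins and the beta chain of mature laminins had the highest levels per length. In the 3-month Ctrl hearts, Itgb1 (the common beta subunit) stood at 51.1 ± 6.4 CPM per kb of annotated exons and Lamb2 at 40.2 ± 2.68 (SD, n = 4). The lowest Itgb1 library, at 44.1, was above the highest Lamb2 library, at 42.9. Itgb5 (14.5 ± 1.36), Nid1 (12.9 ± 1.34) and Lamc1 (12.5 ± 1.64) followed on the same scale, and their ranges overlap, so their order is not resolved. Itga7, the laminin-binding alpha subunit typical of muscle, stood at 10.4 ± 0.909 CPM per kb and Itga5, a subunit of the fibronectin receptor, at 9.86 ± 0.642, again with overlapping ranges. Lamb3, a beta chain best known from epithelial laminin, stood at 1.33 ± 0.144. Lama1, an embryonic laminin alpha chain, had 0 counts in all mouse heart libraries.

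**Figure D1:**
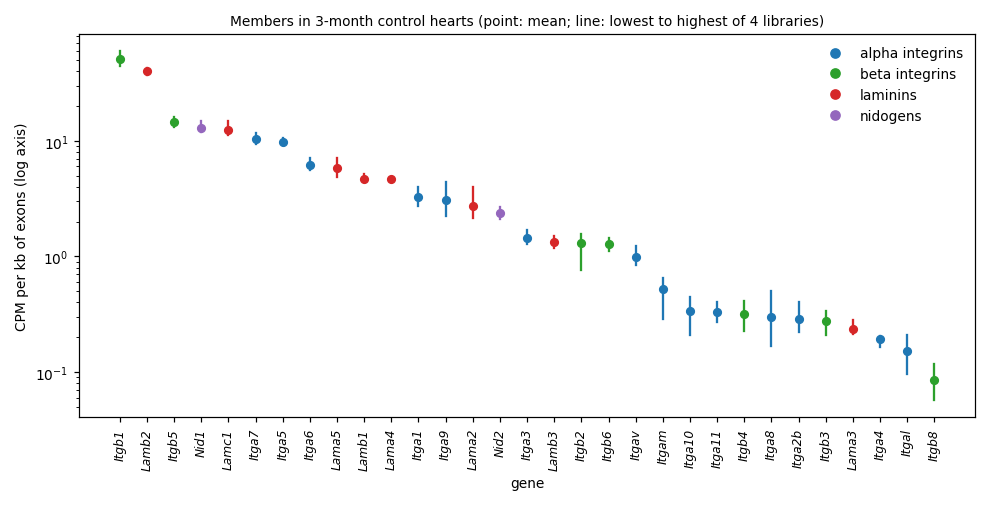
Levels of members with a count in all 4 libraries of the 3-month Ctrl hearts, in CPM per kb of exons on a log axis, with the mean as a point and the lowest to highest library as a line. Itgb1 at 51.1 and Lamb2 at 40.2 stand above Itgb5 at 14.5 and all other members drawn.

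All 39 mouse members matched the GENCODE M21 annotation of GRCm38 and lay on 15 chromosomes. Some are neighbours, with Itga1 and Itga2 20996 bp apart on chromosome 13. Exonic bases of 14 members are shared with exons of another annotated gene. The largest share is that of Itgam, at 68.7% with a predicted gene, and counts of such members depend on how the authors' counting split the reads.

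The comparison of the 1-month-old hearts asks what loss of Mettl5 throughout the body does to the unstressed heart. None of the 35 members tested was called, where 0.00612% of all genes were called (1 of 16329), and the other 4 members (Itgad, Itgae, Lama1 and Lamc3) had too few counts. At an unadjusted p under 0.05 there were 3 members (8.57%, against 4.57% of all genes), all higher in Mettl5-KO hearts, and DESeq2's Wald test called 1, Lamb3. The share of all genes that DESeq2 called is not given here, so its call cannot be set against other genes. The members had a median log2 fold change of 0.05, against -0.01 over all genes tested. Libraries of Mettl5-KO and Ctrl were fully apart for 4 members (11.4%, against 3.01% of all genes, and 1.52% with Mettl5-KO above), and those 4 were laminin chains with Mettl5-KO above Ctrl, namely Lamb3, Lama2, Lamb1 and Lamc1. Fibroblast markers were of positive sign for 8 of 10 genes (575 to 1100 CPM summed in Ctrl and 806 to 1120 in Mettl5-KO hearts) and endothelial markers of negative sign for 10 of 10 (983 to 1180 and 869 to 1050 CPM), with 0 called in both lists, and their part in these values was not tested.

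Lamb3 had 5.76, 6.08, 7.37 and 9.11 CPM in the Ctrl hearts at 1 month and 13, 13.8, 13.9 and 11 in the Mettl5-KO hearts. Each Mettl5-KO library was above each Ctrl library. The log2 fold change was 0.87 (SE 0.157), with an adjusted p of 0.851 by edgeR and of 0.00695 by DESeq2, and the exact permutation test gave p = 0.0286, the smallest that 4 against 4 libraries allow. Lama2, the alpha chain of the muscle basement membrane, had 28, 31.6, 36.5 and 37.3 CPM in Ctrl hearts and 42.5, 44.8, 39.3 and 39.7 in Mettl5-KO hearts. These groups also do not overlap, and the log2 fold change was 0.32 (SE 0.113, adjusted p = 0.973 by edgeR). Itgav, the alpha subunit of vitronectin-type receptors, had 6, 7.46, 7.85 and 7.43 CPM in Ctrl hearts and 7.65, 10.1, 9.58 and 8.56 in Mettl5-KO hearts. Here the highest Ctrl library lay within the Mettl5-KO range, and the log2 fold change was 0.32 (SE 0.131, adjusted p = 0.973 by edgeR).

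Library 1 of the 1-month Ctrl hearts stood apart. Over all genes tested, its median absolute log2 deviation from the others of its group was 0.319, against 0.134 to 0.214 in the other 7 libraries. It held 30.1 CPM of Itga6, a laminin-binding alpha subunit, where the other Ctrl libraries held 53.1 to 68.5, and 0.549 CPM of Itgb6, the beta subunit of an epithelial receptor of latent TGF-β, where they held 4.82 to 6.65. It also had the lowest sums of cardiomyocyte (24000 CPM), fibroblast (575) and pericyte and smooth muscle markers (518) and the highest of macrophage and neutrophil markers (300) among the Ctrl libraries. Without this library the log2 fold change of Lamb3 was 0.78 (adjusted p = 0.572 by edgeR), that of Lama2 0.25 (0.758) and that of Itgav 0.24 (0.791), and 0 members were called.

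The 3-month-old hearts ask the same of loss in cardiomyocytes alone. Again no member of 35 tested was called, where 0.0732% of all genes were (12 of 16391), with the same 4 members left out for low counts. At an unadjusted p under 0.05, 2 members were higher and 5 lower in Mettl5-cKO hearts (20% in all, against 7.05% of all genes), and DESeq2 called 1, Itga6. Its share of all genes called by DESeq2 is again not given here, so this call is no result about the members. The members' median log2 fold change was 0.04, against 0.001 over all genes. Groups did not overlap for 3 members (8.57%, against 4.23% of all genes). These were Lamb3, which was above Ctrl (as were 2.19% of all genes), and Itga6 and Itgb6, which were below (as were 2.04%).

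Itga6 had 50.4, 58.7, 63.9 and 50.5 CPM in Ctrl hearts and 43, 34.3, 27.1 and 35.8 in Mettl5-cKO hearts at 3 months. The log2 fold change was -0.67 (SE 0.143), with an adjusted p of 0.282 by edgeR and 0.00573 by DESeq2. Lamb3 had 9.23, 8.12, 9.91 and 7.88 CPM in Ctrl hearts and 11.1, 11.1, 14.3 and 13.1 in Mettl5-cKO hearts. All Mettl5-cKO libraries were above all Ctrl libraries, with a log2 fold change of 0.50 (SE 0.125, adjusted p = 0.316 by edgeR). Itga1, a collagen-binding alpha subunit, had 50.7, 64.7, 74.7 and 53.4 CPM in Ctrl hearts and 44.1, 42.2, 39.5 and 52.9 in Mettl5-cKO hearts, so that the highest Mettl5-cKO library passed the lowest of Ctrl. Its log2 fold change was -0.45 (SE 0.141, adjusted p = 0.493 by edgeR). The summed endothelial markers were 642 to 987 CPM in Ctrl and 521 to 787 in Mettl5-cKO hearts, with 10 of 10 tested markers of negative sign. Fibroblast markers summed to 505 to 650 and 602 to 865 CPM (9 of 10 of positive sign), macrophage and neutrophil markers to 139 to 185 and 171 to 246 (9 of 11 positive) and cardiomyocyte markers to 45100 to 47700 and 40100 to 45800 (9 of 10 negative). No gene of these 4 lists was called, and their part in the values of Lamb3, Itga6, Itgb6 and Itga1 was not tested.

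**Figure D2:**
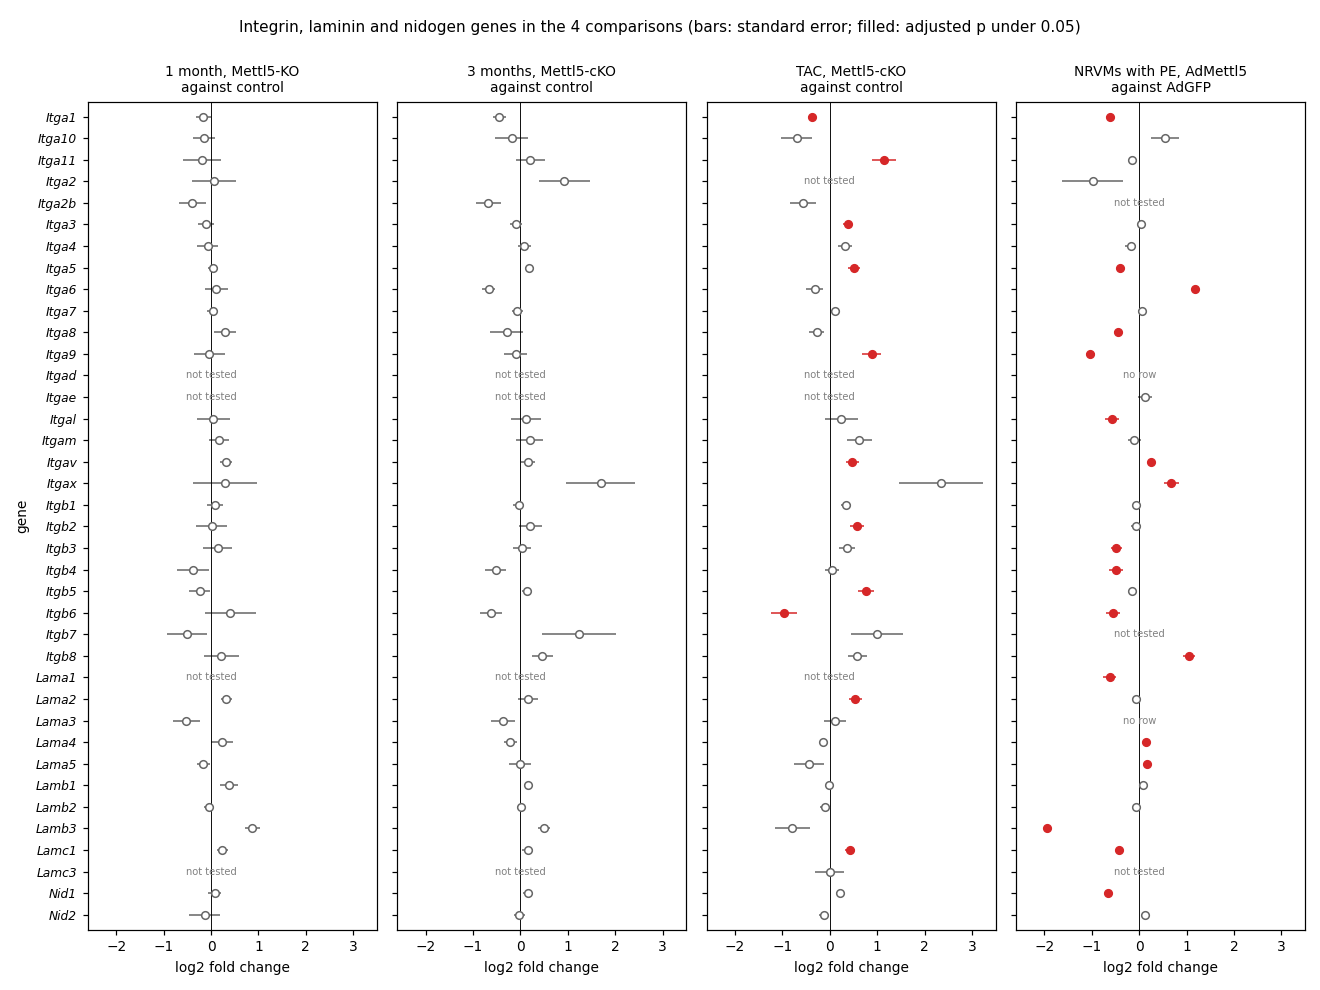
Log2 fold changes (x axis) of 38 members (y axis) in the 4 comparisons, with the standard error as a bar and filled points at an adjusted p under 0.05. Filled points are absent at 1 and 3 months, number 11 after TAC and 18 in NRVMs among the members drawn.

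The comparison after TAC asks how loss of Mettl5 in cardiomyocytes alters the loaded heart. More integrin subunits were called higher than lower in Mettl5-cKO hearts. Most integrin subunits and most laminin chains were not called, and the families were not tested against each other. Of 35 members tested, 9 were higher and 2 lower (31.4%), where 12.7% of all genes tested were called, 6.57% higher and 6.1% lower. The higher members were 5 alpha subunits (Itga11, Itga9, Itga5, Itgav and Itga3), 2 beta subunits (Itgb5 and Itgb2) and 2 laminin chains (Lama2 and Lamc1), and the lower members were Itga1 and Itgb6. Only Itga11 also passed an absolute log2 fold change of 1, as 2.9% of all genes did. The median log2 fold change was 0.24 over the members and -0.004 over all genes. Groups did not overlap for 8 members (22.9%, against 18.6% of all genes), 7 with Mettl5-cKO above Ctrl (9.41% of all genes) and 1 below (9.16%). The members without a test were Itga2, Itgad, Itgae and Lama1.

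The number of calls depended on single libraries. Leaving out Ctrl library 1, 2, 3 or 4 left 8, 0, 4 or 1 members called, and leaving out Mettl5-cKO library 1, 2, 3 or 4 gave 3, 0, 4 or 15, while the calls over all genes went from 2071 to between 479 and 3899. The calls over all genes are not given fit by fit here. A low or high member count can therefore go with few or many calls among all genes. Itga1 remained called in 6 of these 8 fits and Itga11 in 5, whereas Itga3 and Itgav did in 1. With library size alone as the scaling, which moved the median of all genes by 0.15 on the log2 scale, 11 members were higher and 0 lower, and 9 of the 11 were also called under TMM. How many of all genes were called under this scaling is not given here. Itga1 and Itgb6 kept their negative sign there (-0.23 and -0.83) without passing the test.

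Among the collagen-binding alpha subunits, the members moved in opposite directions. Itga11, a collagen receptor subunit known from fibroblasts, had 1.98, 2.14, 2.34 and 1.55 CPM in Ctrl TAC hearts and 6.8, 4.24, 3.56 and 3.15 in Mettl5-cKO TAC hearts. The groups do not overlap, and the log2 fold change was 1.15 (SE 0.253, adjusted p = 0.0223 by edgeR) at counts of 32 to 155 per library. Itga1 had 55.2, 62.6, 64.5 and 54.4 CPM in Ctrl and 45.4, 45.4, 46.6 and 45.2 in Mettl5-cKO hearts. It was lower in each Mettl5-cKO library, with a log2 fold change of -0.38 (SE 0.0756, adjusted p = 0.0174 by edgeR). Itga10, another subunit of this class, had 0.82 to 3.12 CPM over both groups and was not called.

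Of the alpha subunits that bind the RGD motif of fibronectin and vitronectin, Itga5 and Itgav rose. Itga5 had 55.1, 74.4, 74.8 and 61.2 CPM in Ctrl and 102, 105, 79.4 and 89.5 in Mettl5-cKO hearts, without overlap (log2 fold change 0.50, SE 0.126, adjusted p = 0.0331 by edgeR). Itgav had 10.5, 11.2, 9.57 and 9.65 CPM in Ctrl and 17, 14.1, 14.9 and 10.8 in Mettl5-cKO hearts. Library 4 of the Mettl5-cKO hearts lay inside the Ctrl range of Itgav, and the log2 fold change was 0.48 (SE 0.132, adjusted p = 0.0454 by edgeR). Itga8, the nephronectin receptor subunit, and Itga2b, the platelet subunit, had log2 fold changes of -0.28 and -0.57 that did not pass the test.

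Itga9, whose product binds tenascin C and osteopontin, had 34.4, 26, 27.9 and 27.1 CPM in Ctrl and 66.6, 59.8, 53.8 and 33 in Mettl5-cKO hearts. Mettl5-cKO library 4 fell among the Ctrl libraries while the other 3 were well above them, and the log2 fold change was 0.88 (SE 0.195, adjusted p = 0.0224 by edgeR). Of the laminin-binding subunits, Itga3 had 7.83, 7.54, 7.91 and 7.03 CPM in Ctrl and 10.2, 11.1, 9.09 and 8.94 in Mettl5-cKO hearts. It rose without overlap by 0.37 on the log2 scale (SE 0.0953, adjusted p = 0.0345 by edgeR). Itga7 and Itga6, the other laminin-binding subunits, had log2 fold changes of 0.12 and -0.32 and were not called.

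Itgb5, the partner of the Itgav product in a vitronectin receptor, had 54.5, 57, 55.1 and 53 CPM in Ctrl and 113, 103, 97.5 and 59.5 in Mettl5-cKO hearts. No library overlapped, although Mettl5-cKO library 4 exceeded the highest Ctrl library by little, and the log2 fold change was 0.76 (SE 0.169, adjusted p = 0.0224 by edgeR). Itgb2, the common beta subunit of leukocytes, had 4.46, 4.47, 4.16 and 3.06 CPM in Ctrl and 6.84, 6.2, 5.01 and 6.14 in Mettl5-cKO hearts (log2 fold change 0.58, SE 0.149, adjusted p = 0.0351 by edgeR). It was the only leukocyte member called of 5 tested, all 5 of positive sign, where 12.7% of all genes tested were called. Itgb6 had 4.26, 7.34, 6.82 and 6.4 CPM in Ctrl and 4.6, 1.91, 2.55 and 3.64 in Mettl5-cKO hearts. Its groups overlap through Ctrl library 1, and the log2 fold change was -0.97 (SE 0.266, adjusted p = 0.0432 by edgeR). Itgb1 had 233, 214, 195 and 198 CPM in Ctrl and 312, 279, 251 and 223 in Mettl5-cKO hearts, with a log2 fold change of 0.34 and an adjusted p of 0.0736 by edgeR. DESeq2 and the scaling by library size called it higher.

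Among the laminin chains, Lama2 had 50.7, 44.6, 44 and 46 CPM in Ctrl and 76.5, 70.8, 73 and 48.2 in Mettl5-cKO hearts. Again Mettl5-cKO library 4 was inside the Ctrl range, and the log2 fold change was 0.54 (SE 0.136, adjusted p = 0.0341 by edgeR). Lamc1, the gamma chain of most heart laminins, had 123, 115, 109 and 108 CPM in Ctrl and 174, 164, 149 and 124 in Mettl5-cKO hearts, just without overlap (log2 fold change 0.43, SE 0.107, adjusted p = 0.0337 by edgeR). The beta chains Lamb1 and Lamb2, which form trimers with it, had log2 fold changes of -0.02 and -0.11, and the endothelial alpha chain Lama4 one of -0.14, none of them called and all positive (0.13, 0.04 and 0.01) under scaling by library size alone. Nid1 had 112, 117, 116 and 109 CPM in Ctrl and 145, 127, 136 and 119 in Mettl5-cKO hearts. All Mettl5-cKO libraries were above all Ctrl libraries of Nid1, yet its log2 fold change of 0.21 had an adjusted p of 0.0976 by edgeR, and Nid2, the other nidogen, had one of -0.12 (adjusted p = 0.494).

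**Figure D3:**
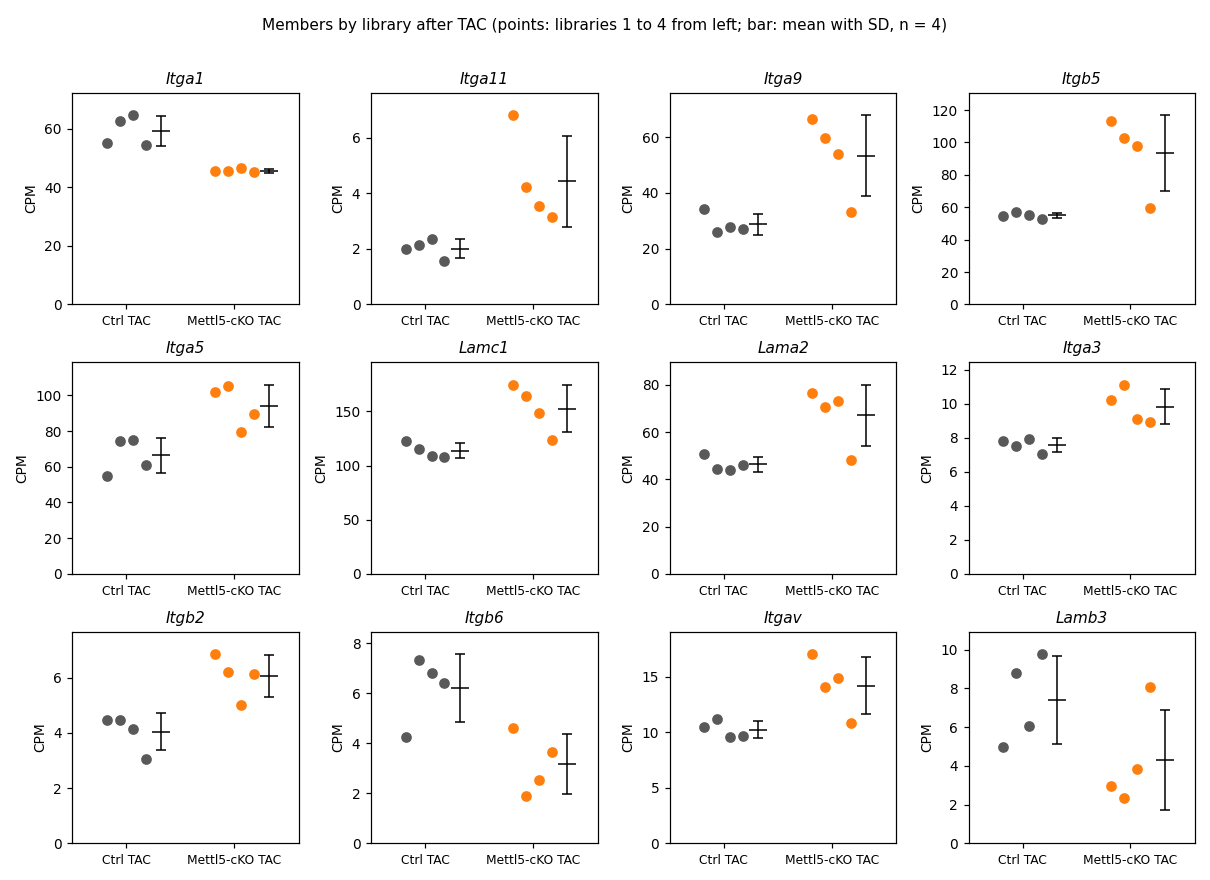
CPM by library of the 11 members called after TAC and of Lamb3, in Ctrl and Mettl5-cKO hearts, with the mean and SD (n = 4) beside the points. Mettl5-cKO library 4, the rightmost point, lies near the Ctrl libraries for Itga9 (33), Itgb5 (59.5) and Lama2 (48.2).

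Marker genes of other cell types moved in the same libraries. Fibroblast markers summed to 660 to 827 CPM in Ctrl TAC hearts and to 982 to 2490 in Mettl5-cKO TAC hearts, with 7 of 10 called higher, and library 4 had the lowest Mettl5-cKO sum. Macrophage and neutrophil markers summed to 196 to 255 CPM in Ctrl and 263 to 336 in Mettl5-cKO hearts, with 3 of 11 higher. Endothelial markers summed to 787 to 934 CPM in Ctrl and 558 to 721 in Mettl5-cKO hearts, with 5 of 10 lower, and cardiomyocyte markers to 40900 to 45700 and 29800 to 38000 CPM, with 3 of 10 lower. Over all genes tested, 6.57% were called higher and 6.1% lower. The part of these cell types in the changes of the integrin and laminin genes was not tested.

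Members were compared with 3 other gene lists of the pathway. Of 32 integrin adaptor and signaling genes tested after TAC, 7 were higher and 1 lower, where 6.57% of all genes were called higher and 6.1% lower. Ptk2b, a kinase related to focal adhesion kinase, rose by a log2 fold change of 0.92 (5.95 ± 0.881 against 11.3 ± 1.74 CPM), the collagen receptor kinase Ddr1 by 0.78 (12.9 ± 1.96 against 22.1 ± 2.93) and the focal adhesion protein gene Zyx by 0.61 (73.5 ± 7.02 against 112 ± 15.2). The lower one was Itgb1bp2, which encodes the muscle protein melusin that binds the integrin beta1 tail, with a log2 fold change of -0.36 (149 ± 6.43 against 116 ± 14.7 CPM); it was named after its value was seen. Of 26 other basement membrane genes and laminin receptors, 6 were higher and 3 lower, among them Fbln2 (log2 fold change 1.00), which encodes a fibulin that binds nidogen, Egflam (-1.12), which encodes the dystroglycan ligand pikachurin, and the peroxidasin gene Pxdn (-0.50). Of 22 other integrin ligands of the matrix, 12 were higher and 1 lower. The ligand list shares Col1a1, Col1a2 and Col3a1 with the fibroblast markers and Vwf with the endothelial markers. Fbln1 is both a fibroblast marker and in the basement membrane list, so these lists are not independent. The periostin gene Postn rose from 39 ± 11.3 to 486 ± 292 CPM (log2 fold change 3.64), the thrombospondin gene Thbs4 from 3.29 ± 0.861 to 57.7 ± 38.4 (4.13), and the osteopontin gene Spp1 from 0.285 ± 0.109 to 1.56 ± 0.688 (2.44, at low counts). At 1 and 3 months no gene of these lists was called.

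Upstream sequences are shown for 5 members called after TAC, 4 that rose and 1 that fell, to set beside their values what lies before their starts. They are the called members for which no window in the RefSeq table holds an annotated exon, a choice made after the values were seen. Each is the 250 bases before the RefSeq start on GRCm38.p6, given 5′ to 3′ on the strand of the gene, with matches to the searched motifs in capitals. The Lama2 window lies inside the GENCODE M21 gene model of Lama2, which runs from 26980036 to 27619758 on the - strand. Motifs were searched on both strands and were TGANTCA (AP-1), GGAATG (TEAD), CAGAC (SMAD) and GGGCGG (GC box).
Itgb5, chr16:33829415-33829664, + strand: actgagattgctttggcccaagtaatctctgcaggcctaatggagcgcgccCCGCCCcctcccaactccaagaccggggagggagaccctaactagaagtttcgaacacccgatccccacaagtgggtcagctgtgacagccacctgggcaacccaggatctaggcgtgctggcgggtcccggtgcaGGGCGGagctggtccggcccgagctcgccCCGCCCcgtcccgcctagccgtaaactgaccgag
Itga5, chr15:103366792-103367041, - strand: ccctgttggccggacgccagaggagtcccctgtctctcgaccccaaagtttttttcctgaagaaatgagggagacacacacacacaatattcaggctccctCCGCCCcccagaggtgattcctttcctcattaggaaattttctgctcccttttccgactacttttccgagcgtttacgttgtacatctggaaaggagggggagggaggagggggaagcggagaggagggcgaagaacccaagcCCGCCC
Itgav, chr2:83724147-83724396, + strand: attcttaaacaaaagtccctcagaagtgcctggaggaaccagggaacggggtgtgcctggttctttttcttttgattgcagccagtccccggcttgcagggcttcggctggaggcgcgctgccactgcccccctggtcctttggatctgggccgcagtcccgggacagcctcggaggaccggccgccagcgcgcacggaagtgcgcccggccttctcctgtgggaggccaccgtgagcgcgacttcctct
Lama2, chr10:27616943-27617192, - strand: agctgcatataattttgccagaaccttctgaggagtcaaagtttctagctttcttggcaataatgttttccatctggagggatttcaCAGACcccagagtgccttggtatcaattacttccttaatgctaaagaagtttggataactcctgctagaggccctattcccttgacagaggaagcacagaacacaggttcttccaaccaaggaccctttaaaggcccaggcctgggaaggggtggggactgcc
Itga1, chr13:115101965-115102214, - strand: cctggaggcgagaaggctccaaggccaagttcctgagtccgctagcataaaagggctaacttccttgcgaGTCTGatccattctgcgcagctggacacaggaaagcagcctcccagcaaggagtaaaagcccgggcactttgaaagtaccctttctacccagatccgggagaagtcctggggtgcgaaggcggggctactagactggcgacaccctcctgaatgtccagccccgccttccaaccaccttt
The Itgb5 window holds 3 GC box matches and the Itga5 window 2, while the Lama2 window and the Itga1 window each hold 1 CAGAC match and the Itgav window 0 matches to any of the 4 motifs. The GC box was present in 32.7% of all 32851 promoter windows of this length and in 37% of the 27 windows of 24 members that the RefSeq table holds. CAGAC was present in 42.2% and 55.6%, GGAATG in 12.6% and 14.8%, and TGANTCA in 6.75% and 3.7%, respectively. A match describes the letters only and is no evidence of binding.

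Lamb3 had positive log2 fold changes at 1 and 3 months and negative ones after TAC and in NRVMs. In mouse it is annotated at chr1:193207699-193343878 on the + strand (ENSMUSG00000026639). Its gene model spans Hsd11b1 and G0s2 on the other strand, but 0 of its exonic bases are shared with exons of another gene in GENCODE M21. After TAC it had 4.96, 8.8, 6.04 and 9.75 CPM in Ctrl hearts and 2.94, 2.37, 3.84 and 8.09 in Mettl5-cKO hearts. Mettl5-cKO library 4 lay among the Ctrl libraries, and the log2 fold change was -0.79 (SE 0.369, adjusted p = 0.18 by edgeR). Without that library it was -1.26, with an adjusted p of 0.0106 by edgeR, the only one of the 8 fits with a library left out that called it; over the 8 the log2 fold change ran from -1.26 to -0.59 and the adjusted p up to 0.378. The log2 fold change after TAC was 1.27 lower than that at 3 months (SE 0.409), a difference with an adjusted p of 0.226 in the interaction test by edgeR, and of 0.00378 (difference -1.76) without Mettl5-cKO TAC library 4. That was the only call in 16 such fits, whose differences ran from -1.76 to -1.07 with adjusted p up to 0.441. As no group is labelled as sham-operated, this difference cannot be assigned to the load alone. Hsd11b1 had log2 fold changes of 0.55 at 3 months and -0.62 after TAC, and G0s2 of -0.17 and -0.96, none of which passed the test, and their part in the Lamb3 values was not tested.

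**Figure D4:**
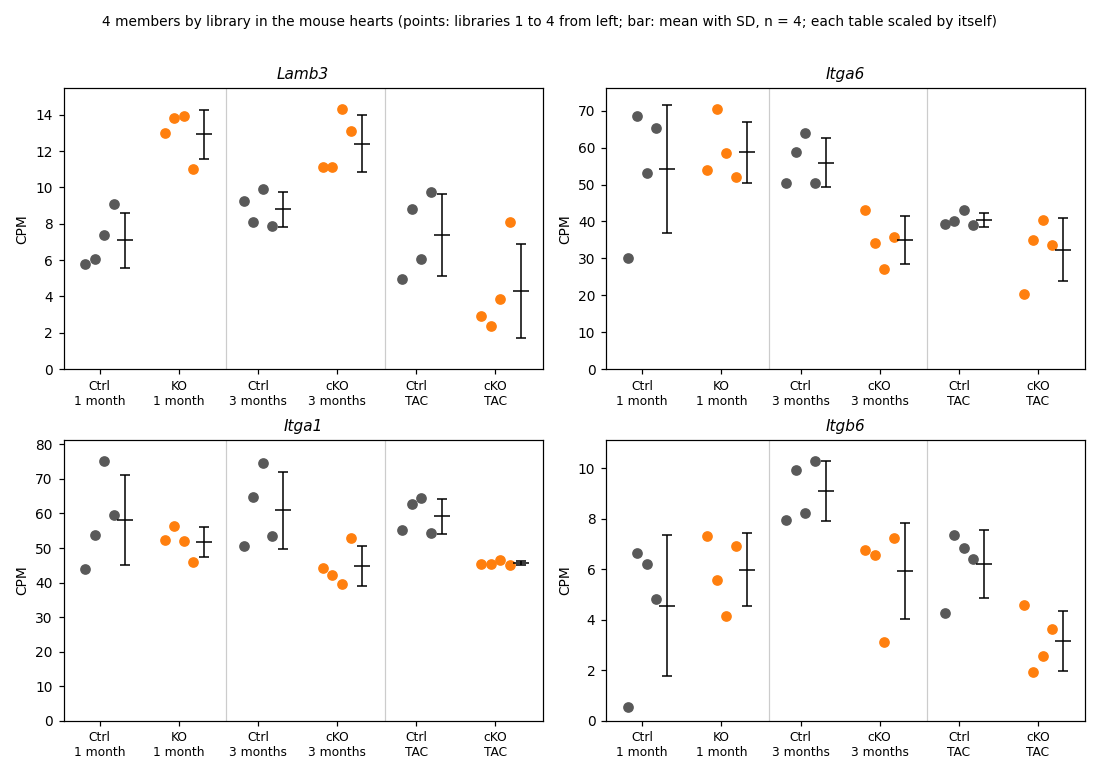
CPM by library of Lamb3, Itga6, Itga1 and Itgb6 in the 6 groups of mouse hearts, with the mean and SD (n = 4) beside the points and each table scaled by itself. Lamb3 in Mettl5-KO (11 to 13.9) and 3-month Mettl5-cKO hearts (11.1 to 14.3) lies above its Ctrl hearts, and after TAC 3 of 4 Mettl5-cKO libraries (2.37 to 3.84) lie below them.

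Over all members, the genotype effect after TAC was not shown to differ from that at 3 months. No group is labelled as sham-operated. Surgery and other differences between the 3-month and the TAC sets of hearts therefore cannot be told apart. The interaction test called 0 of 36 members (0.00586% of all genes were called, 1 of 17070), with 7 members (19.4%, against 11.8% of all genes) at an unadjusted p under 0.05, and DESeq2 called 0. The smallest p-values were those of Itga3 (difference of log2 fold changes 0.48, SE 0.153, adjusted p = 0.226 by edgeR), Lamb3 and Itgb5 (0.65, SE 0.211, adjusted p = 0.228 by edgeR). Without Mettl5-cKO TAC library 4 the test called 2, Itgb5 (0.80, adjusted p = 0.00211 by edgeR) and Lamb3. The share of all genes called in that fit is not given here.

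In the NRVMs, where the comparison asks what added METTL5 does to cardiomyocytes under a hypertrophic agonist, most called members were lower with AdMettl5. Of 34 members tested, 6 were higher and 13 lower (55.9%), where 52.8% of all genes tested were called, 27.1% higher and 25.7% lower, so the members were called about as often as other genes. The lower members were 5 alpha subunits (Itga9, Itga1, Itgal, Itga8 and Itga5), 3 beta subunits (Itgb6, Itgb4 and Itgb3), laminin chains that include Lamb3, Lama1 and Lamc1, and Nid1. Higher were Itga6, Itgb8, Itgax, Itgav, Lama5 and Lama4. An absolute log2 fold change over 1 was passed by 5 (14.7%, against 5.85% of all genes), among them Lamb3, Itga6, Itgb8 and Itga9. The median log2 fold change was -0.12 over the members and -0.002 over all genes. Groups did not overlap for 16 members (47.1%, against 48.4%). Lamc3, Itga2b and Itgb7 had too few counts for a test. Scaling by library size alone moved the median of all genes by 0.14 on the log2 scale and gave 10 members higher and 12 lower, with a member median of 0.01. Leaving out each library in turn gave 17 to 20 called members, and the calls lost were those of Lama4, Lama5 and Itgb4. Shares of all genes called under that scaling and in these fits are not given here. The member counts are therefore no result about the members beside other genes.

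The largest change was that of Lamb3 (ENSRNOG00000006025), which had 182, 179, 168 and 164 CPM with AdGFP and 42.5, 46.2, 45.9 and 45.9 with AdMettl5. The groups lay far apart, and the log2 fold change was -1.94 (SE 0.0517, adjusted p = 7.07e-10 by edgeR). G0s2 was also lower in NRVMs with AdMettl5 (36.8 ± 3.91 against 10.4 ± 1.05 CPM, log2 fold change -1.83, adjusted p = 3.92e-08 by edgeR), while Hsd11b1 had a log2 fold change of 0.08 (adjusted p = 0.214); where these genes lie in the rat genome was not examined.

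Other basement membrane chains changed by less. Lamc1 had 1070, 1200, 1030 and 1090 CPM with AdGFP and 794, 792, 856 and 823 with AdMettl5 (log2 fold change -0.43, SE 0.0559, adjusted p = 4.78e-05 by edgeR). Nid1 had 568, 588, 686 and 654 CPM with AdGFP and 390, 367, 396 and 437 with AdMettl5 (-0.65, SE 0.0703, adjusted p = 1.15e-05 by edgeR). Neither gene had overlapping groups. Lama1 had 5.52, 4.93, 6.19 and 5.99 CPM with AdGFP and 3.85, 3.36, 2.89 and 4.58 with AdMettl5 (-0.62, SE 0.142, adjusted p = 0.00291 by edgeR), again without overlap and at a low level. Lama5 and Lama4, alpha chains prominent in vessels, rose by 0.15 and 0.14 on the log2 scale (adjusted p = 0.0291 and 0.0425 by edgeR), and neither was called without AdGFP library 1 or 3 or without AdMettl5 library 3 or 4. Lama2, Lamb1, Lamb2 and Nid2 were not called, with log2 fold changes between -0.06 and 0.13, and those of Lama2 and Lamb2 were positive (0.07 and 0.08) under scaling by library size alone.

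Of the laminin-binding subunits, 1 of 3 was called, where 52.8% of all genes tested were. Itga6 had 122, 131, 109 and 115 CPM with AdGFP and 268, 276, 286 and 251 with AdMettl5. Every AdMettl5 library exceeded every AdGFP library, with a log2 fold change of 1.18 (SE 0.062, adjusted p = 4.22e-08 by edgeR). The other laminin-binding subunits, Itga3 (168, 177, 163 and 175 against 173, 175, 172 and 179 CPM) and Itga7 (319, 319, 242 and 261 against 299, 309, 304 and 282 CPM), overlapped between the groups and were not called (log2 fold changes 0.03, SE 0.0422, and 0.07, SE 0.0833). Under scaling by library size alone both were called higher.

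Itga9 had 84.4, 102, 73.6 and 76.4 CPM with AdGFP and 39.4, 41.5, 43.1 and 40.4 with AdMettl5 (log2 fold change -1.03, SE 0.0906, adjusted p = 2.16e-06 by edgeR). The collagen-binding Itga1 had 67, 81.9, 68.2 and 74.8 CPM with AdGFP and 45.1, 42.6, 51.3 and 50.4 with AdMettl5 (-0.62, SE 0.0774, adjusted p = 3.36e-05 by edgeR). Both genes were lower in all AdMettl5 libraries. Itga11, of the same collagen-binding class as Itga1, had 20.7 to 26.5 CPM with AdGFP and 20.9 to 22.7 with AdMettl5 and was not called.

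The RGD-binding subunits went in opposite directions. Itga5 had 442, 445, 405 and 453 CPM with AdGFP and 316, 335, 318 and 339 with AdMettl5 (log2 fold change -0.42, SE 0.0489, adjusted p = 2.27e-05 by edgeR). Itga8 had 52.8, 52.5, 64.3 and 54.9 CPM with AdGFP and 39.1, 38.9, 40 and 45.8 with AdMettl5 (-0.45, SE 0.0764, adjusted p = 0.000352 by edgeR). Both were lower without overlap, whereas Itgav was higher without overlap, with 138, 154, 141 and 131 against 170, 159, 184 and 156 CPM (0.24, adjusted p = 0.00596 by edgeR). Itgb3, a further partner of the Itgav product, had 12.8, 12.8, 14.3 and 15.8 CPM with AdGFP and 7.83, 9.73, 11 and 11.1 with AdMettl5 (-0.49, SE 0.114, adjusted p = 0.00334 by edgeR), without overlap. Itgb8, whose product joins that of Itgav in a receptor of latent TGF-β, had 3.08, 4.21, 4.32 and 4.94 CPM with AdGFP and 7.89, 9.06, 9.12 and 8.46 with AdMettl5. It rose by 1.06 on the log2 scale (SE 0.128, adjusted p = 2.72e-05 by edgeR), and its groups lie apart. Itgb1, the subunit with the most counts, had 2140, 2220, 1810 and 1830 CPM with AdGFP and 1870, 1870, 2000 and 1890 with AdMettl5, and was not called (-0.07, SE 0.0707, adjusted p = 0.464 by edgeR, and 0.07 under scaling by library size alone).

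**Figure D5:**
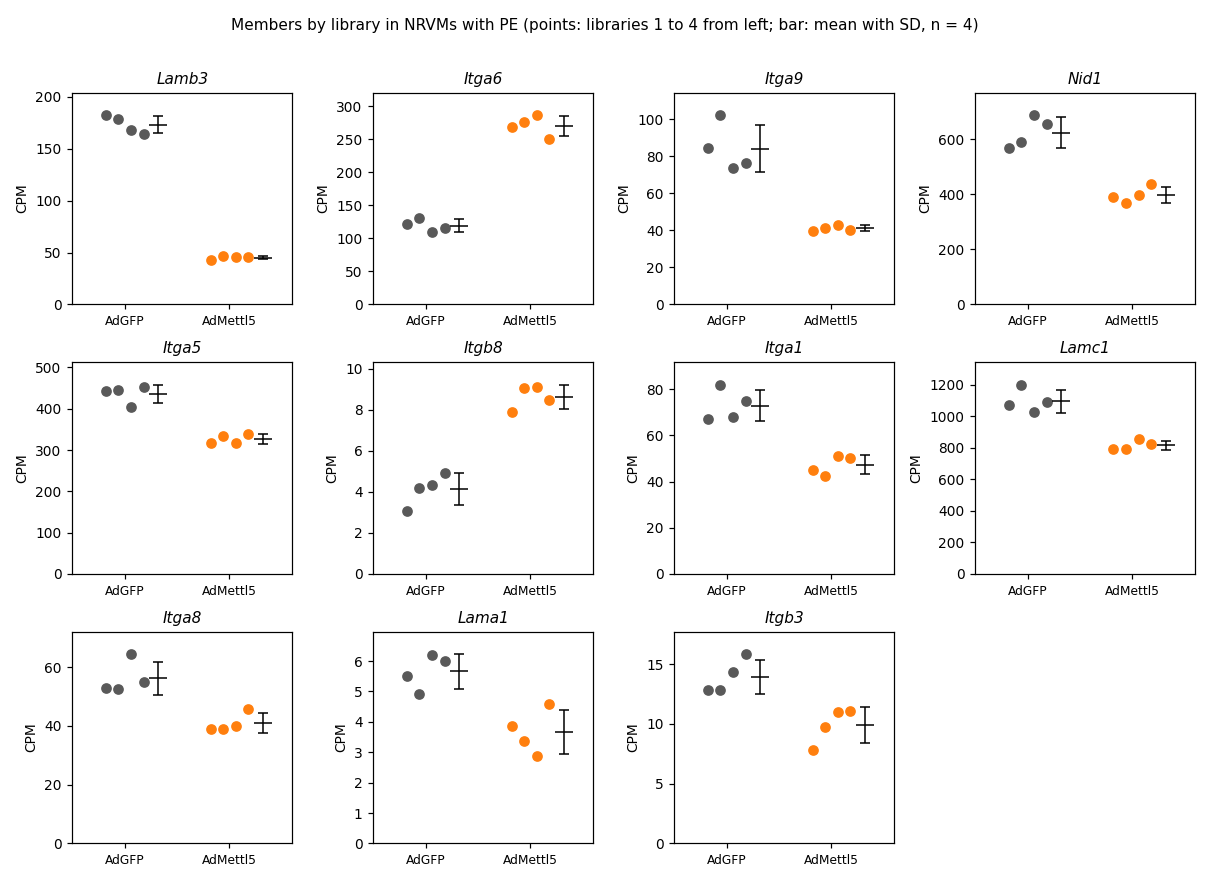
CPM by library of 11 members in PE-treated NRVMs with AdGFP or AdMettl5, with the mean and SD (n = 4) beside the points. Groups are apart for all 11, from Lamb3 (164 to 182 against 42.5 to 46.2) to Lama1 (4.93 to 6.19 against 2.89 to 4.58), and Itga6 and Itgb8 are the 2 that are higher with AdMettl5.

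Cell type markers differed in the same cultures. Cardiomyocyte markers summed to 22400 to 25500 CPM with AdGFP and to 10500 to 11400 with AdMettl5, with 10 of 10 lower, and fibroblast markers to 10900 to 11400 and 8650 to 9560 CPM, with 7 of 9 tested lower. Mesothelial and epithelial markers summed to 46.2 to 53.5 and 25.3 to 29.9 CPM, with 6 of 7 tested lower. Endothelial markers summed to 49.6 to 52.1 and 62 to 66.6 CPM, with 1 of 8 tested higher. Their signs were split, 4 positive and 4 negative, with a median log2 fold change of 0.006. Pericyte and smooth muscle markers summed to 3410 to 4220 and 3950 to 4490 CPM, with 4 of 10 higher and 2 lower. Macrophage and neutrophil markers summed to 95.1 to 113 and 68.1 to 83.4 CPM, with 3 of 6 tested lower. Over all genes tested, 27.1% were called higher and 25.7% lower. The part of these cell types in the member values was not tested.

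In each of the other gene lists of the pathway, more genes were called lower than higher with AdMettl5. Of 32 integrin adaptor and signaling genes tested, 2 were higher and 18 lower, where 27.1% of all genes were called higher and 25.7% lower. Itgb1bp2 fell from 113 ± 14.1 to 40.8 ± 2.83 CPM (log2 fold change -1.48), the parvin gene Parvb from 274 ± 8.47 to 181 ± 2.84 (-0.59) and the vinculin gene Vcl from 748 ± 13 to 511 ± 13 (-0.55). Of 25 other basement membrane genes and laminin receptors, 2 were higher and 15 lower, led by Col15a1 (-0.95), which encodes a collagen of the outer basement membrane, the collagen IV chain Col4a4 (-0.67) and the sarcoglycan gene Sgcb (-0.44). Of 22 other integrin ligands, 6 were higher and 10 lower. Npnt, which encodes nephronectin, the ligand of the Itga8 integrin, rose from 4.92 ± 0.739 to 11.9 ± 0.319 CPM (1.28, adjusted p = 1.14e-06 by edgeR), while Col6a1 (-0.74) and Postn (-0.55) fell.

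Values of single members can be set side by side between the loaded hearts without Mettl5 in cardiomyocytes and the cultures with added METTL5, which share no libraries. Itga9 had log2 fold changes of 0.88 and -1.03, Itga5 of 0.50 and -0.42, and Lamc1 of 0.43 and -0.43, each called in both. Itga1 (-0.38 and -0.62) and Itgb6 (-0.97 and -0.56) were lower in both, and Itgav (0.48 and 0.24) was higher in both. The other 5 members called after TAC (Itga11, Itga3, Itgb5, Itgb2 and Lama2) were not called in the NRVMs. Of all genes tested in the NRVMs, 52.8% were called, so a call there is common among genes of any kind. Hearts of mice and cultured cells of rats were not tested against each other.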

How the data were processed

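Gene tables of 32 libraries in 8 groups of 4 were used. The authors aligned the reads with HISAT2 (version 2.0.4 in the submitters' processing notes) to GRCm38 or Rnor_6.0 and deposited StringTie estimated counts (2.1.4) as whole numbers without scaling, so that rounding changed nothing. The tests had been planned for plain counts. Strandedness is not given in the sources used here. Columns were matched to single samples at 1 month and to groups elsewhere. In edgeR 4.0.16 (R 4.3.3), each table was filtered (filterByExpr, minimum count 10, total 15), TMM-scaled and fitted by glmQLFit and glmQLFTest over all genes, 14324700 to 21804907 counts per library giving a median standard error of the log2 fold change from 0.0807 (NRVMs) to 0.175 (1 month). The interaction was fitted to the counts of the 3-month and TAC tables together. Single genes were also tested by a two-sided exact permutation test over 70 labellings.

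Members, gene lists and markers were chosen with earlier results of these data known. Named in full were the called members (at most 12 per comparison), otherwise the 3 with the smallest p, Lamb3 throughout, and 3 called genes per list. Results of 1 member are not reported here. Exon lengths and positions come from GENCODE M21, and upstream sequences from RefSeq. Alternatives were DESeq2 1.42.0, its size factors, library size alone, other filters, a minimum fold change, a replicate block and leaving out each library. The pipeline was tested on simulated data.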

Additional observations from a re-analysis of the deposited data

Results flagged for a closer look

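Dixon's test was applied to 58 groups of 4 libraries of the named members, and 3 groups held a library far from the other 3, where chance gives about 1 in 20. Lama2 in Mettl5-cKO TAC library 4 was at 48.2 CPM against 70.8 to 76.5 in the others (gap over range 0.833). Itga1 in Mettl5-cKO TAC library 3 was at 46.6 CPM against 45.2 to 45.4 (0.867), a group whose whole range is small. In NRVMs with AdMettl5, Lamb3 in library 1 was at 42.5 CPM against 45.9 to 46.2 (0.916), a gap that is small beside the difference from AdGFP.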

How the results depend on the processing

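The members named by the rule, which takes at most 12 called members per comparison, changed sign under no alternative run. Over all members tested, scaling by library size alone changed the sign of 5 in NRVMs, 5 after TAC, 3 in the 3-month hearts and 1 in the 1-month hearts, and DESeq2 size factors that of 1 after TAC, none of them called under either scaling. The number called moved with the method in the hearts. DESeq2 called 1 member at 1 month and 1 at 3 months where edgeR called 0. After TAC, 11 members were called, against 1 with a minimum absolute log2 fold change of 1, 4 without a filter on low counts, 13 by DESeq2 and between 0 and 15 with 1 library left out; the cause was not tested. In NRVMs the minimum fold change left 5 of 19. Shares of all genes called by DESeq2 and without the filter are not given here, so those member counts cannot be set against other genes. The interaction test called between 0 and 2 with 1 library left out. Of the single member values, 58 fits with a library left out and 9 other fits lost a call in the same direction, and 3 and 2 gained a call. The replicate block at 1 month gave 0 called members, as without it. Libraries of the same number correlated by 0.239, 0.12, -0.107 and 0.078 there, and 3 of 8 correlated best with their own number, so the numbers were not taken as pairs. No paired analysis was possible in the other tables because their columns carry no replicate number shared between the groups. Members such as Itgax and Itgb7 at under 2 CPM in the hearts are limited by depth.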
